A study of Mus musculus with 9 samples.

Results

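The renin-angiotensin system of the mouse renal cortex was described through 9 genes, Agt, Ren1, Atp6ap2, Ace, Enpep, Mme, Agtr1a, Agtr1b and Mas1, out of 21950 mRNA genes. They were picked by gene symbol, with no threshold on a measured value. Renal cortex came from 3 groups of 3 male C57BL/KsJ mice of 15 weeks of age, with 1 RNA-seq library per mouse. Control mice were nondiabetic db/m littermates, heterozygous for the db mutation of the leptin receptor, and were given vehicle. The dbdb mice were homozygous for the mutation, diabetic and given vehicle, and the dbR mice were db/db mice that received rosiglitazone, which activates the nuclear receptor PPARγ. It was given by gavage in a daily dose of 20 mg/kg over 8 weeks, starting at 7 weeks of age. The mutation is carried by the whole animal, and the model combines obesity with diabetes. There was no db/m group with rosiglitazone. The comparisons ask which of these genes differ between diabetic and control cortex (dbdb vs. control) and which differ with the drug in diabetic mice (dbR vs. dbdb), with dbR vs. control added.

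The renin-angiotensin system makes and removes small peptides that set vascular tone and sodium retention. Renin cuts angiotensinogen to angiotensin I, and angiotensin-converting enzyme (ACE) trims this to angiotensin II, which acts through the AT1 receptor. Other peptidases of the tubular brush border, such as neprilysin and aminopeptidase A, divert or degrade the same peptides, and angiotensin-(1-7), one of their products, is a ligand of the Mas receptor. In the kidney, renin is made by cells of the afferent arteriole, ACE by endothelium and proximal tubule, and neprilysin by proximal tubule and podocytes.

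Levels are given as FPKM, the number of sequenced fragments of a transcript scaled to its length and to the size of the library, summed over the mRNA transcripts of a gene. Of the 9 genes, 8 passed the minimum mean FPKM of 0.1, and Agtr1b did not. Differences were tested with limma on log2(FPKM + 0.1) over 14537 genes, and a gene was called at a Benjamini-Hochberg adjusted p under 0.05. Adjusted p-values below are two-sided and come from this fit unless a fit over transcripts or an alternative setting is named. The smallest p of an exact permutation test of 3 libraries against 3 is 0.1. Groups that do not overlap reach it, and the test cannot go under 0.05. The 3 comparisons share libraries and are not independent of each other.

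The libraries held an estimated 23.9 to 29.6 M (mega) fragments each, and mitochondrial transcripts took 26.9% to 32.8% of the mRNA FPKM. Lepr, the mutated gene, had a summed FPKM of 1.16 ± 0.0954 (SD, n = 3) in control, 0.429 ± 0.193 in dbdb and 0.412 ± 0.0906 in dbR cortex. Control replicate 3 stood apart in Gm26917 and Yam1, lncRNAs related to ribosomal RNA. Gm26917 was at an FPKM of 5.27 against at least 1083 in the other libraries, and Yam1 at 0.842 against at least 102. The proximal tubule markers Lrp2, Cubn, Slc34a1, Slc5a2, Slc5a12 and Aqp1 were all present, with a summed FPKM of 2457 to 2758 in control, 2563 to 3169 in dbdb and 2804 to 2927 in dbR libraries. Endothelial markers summed to 97.3 to 106, 69.2 to 75.7 and 97.2 to 116 in the same order, and leukocyte markers to 18.4 to 26.0, 8.71 to 11.0 and 12.7 to 14.4. Of 5 adrenal cortex markers, Cyp11b1 and Cyp11b2 were at 0 in all 9 libraries, whereas Star and Mc2r were above 0 in all 9, with Star at 0.769 in control and 1.23 in dbdb cortex (not called, adjusted p = 0.0647). In bulk tissue, fewer cells of a type and less RNA per cell cannot be told apart.

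In controls, Enpep stood highest of the 9 genes on the FPKM scale, which is already divided by length, with 79.6 ± 2.97 (SD, n = 3). Mme followed with 58.6 ± 1.68, then Ren1 with 49.0 ± 17.7, Atp6ap2 with 46.5 ± 0.543 and Ace with 46.0 ± 3.42. The ranges of Mme and Ren1, of Ren1 and Atp6ap2, and of Atp6ap2 and Ace overlapped. Agtr1a at 18.0 ± 1.05 and Agt at 12.9 ± 1.01 did not overlap with their neighbours, and Mas1 came last among the tested genes at 1.66 ± 0.705. In dbdb cortex Ace had passed below Agtr1a and Agt, at 10.5 ± 0.715, while the first place of Enpep was the same.

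**Figure D1:**
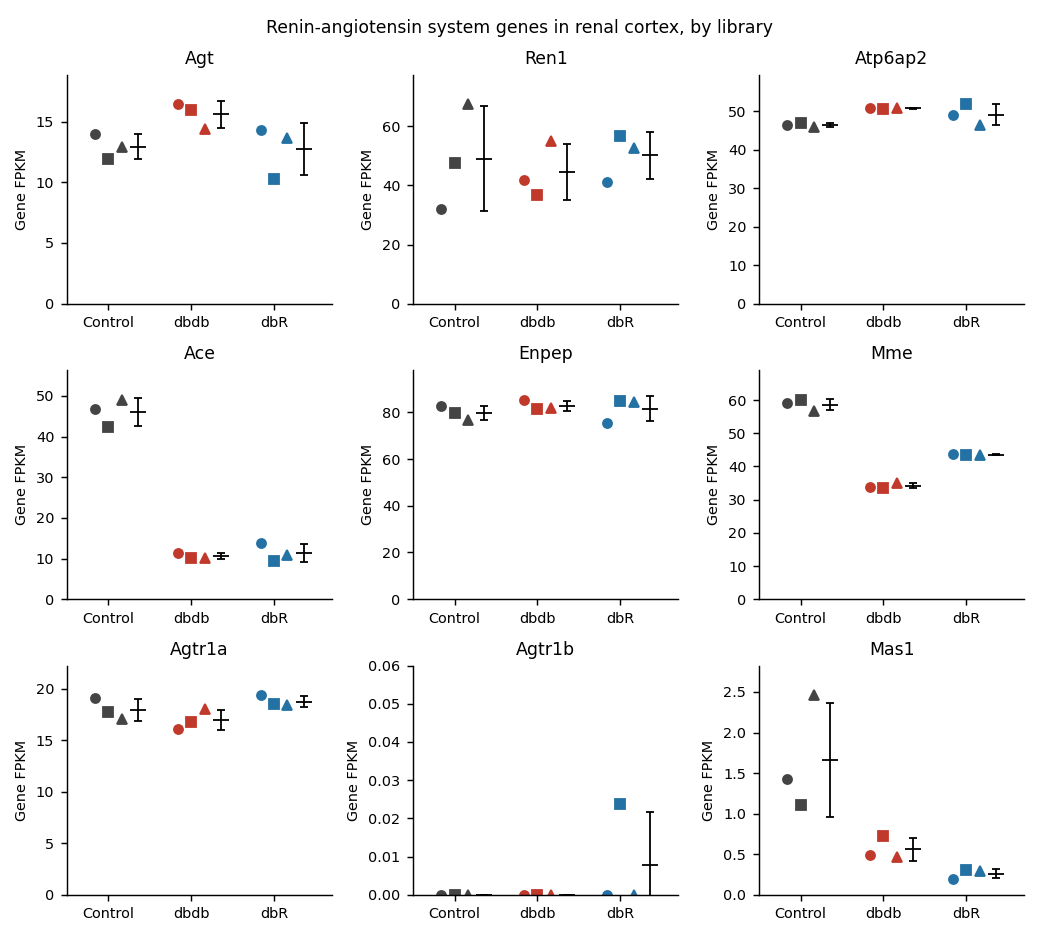
FPKM of the 9 genes (y axes, each from 0) in the 3 libraries of each group (circle, square and triangle for replicates 1, 2 and 3), with the mean ± SD beside the points. Ace, Mme and Mas1 lie lower in all 3 dbdb libraries than in any control library, Mme lies between the other groups in dbR, and Agtr1b shows a value above 0 in 1 of 9 libraries.

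Compared with control cortex, dbdb cortex held less Ace, Mme and Mas1 mRNA, and 5 tested members did not pass the threshold. These 3 of 8 called members (0 higher, 3 lower) stand against 26.4% of all genes called in this comparison, 13.1% higher and 13.4% lower. An alternative fit left out mitochondrial transcripts and then scaled every library to the same summed FPKM. The fit as reported has no such scaling. Summed mRNA FPKM was 675346 to 730057 in control, 594838 to 647995 in dbdb and 595252 to 702217 in dbR libraries. Under the alternative 6 of 8 members were called, Agt, Atp6ap2 and Enpep higher and Ace, Mme and Mas1 lower. Which step moved the calls was not tested. Of all calls, 78.3% were then higher, against 49.5% here. At an unadjusted p under 0.05 there were 4 of 8 members and 38.8% of all genes, and the groups did not overlap in 5 of 8 members and 42.4% of all genes. The median log2 fold change over the 8 was -0.09, against 0.00 (-0.0030) over all genes tested. Between dbR and dbdb, 1 of 8 members was called, Mme (higher), against 0.743% of all genes called, 0.564% higher and 0.179% lower. At an unadjusted p under 0.05 there were 3 of 8 members and 17.5% of all genes, and the groups did not overlap in 4 of 8 members and 22.7% of all genes. In dbR vs. control, Ace, Mme and Mas1 were called lower, 3 of 8 members, against 24.1% of all genes called, 12.3% higher and 11.8% lower. There, 3 of 8 members and 36.8% of all genes had an unadjusted p under 0.05, and the groups did not overlap in 3 of 8 members and 41.9% of all genes.

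**Figure D2:**
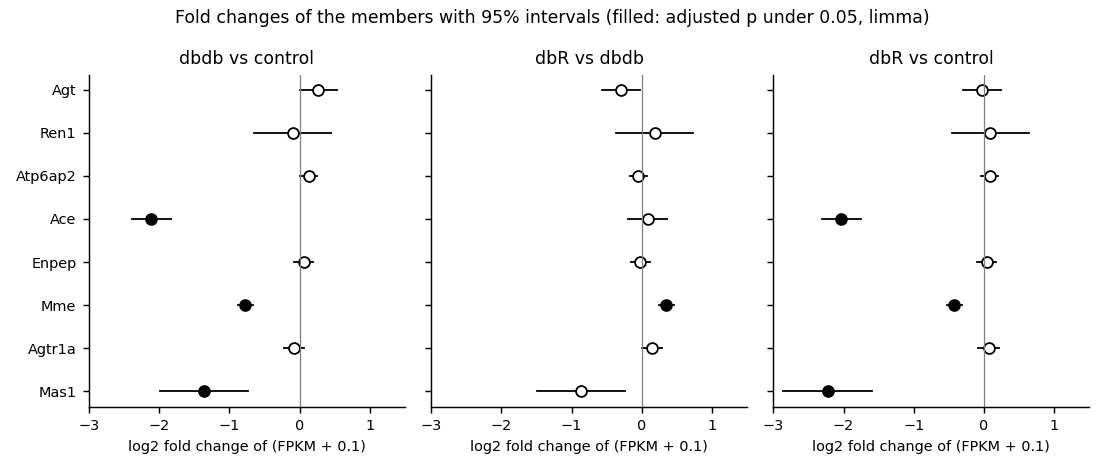
Log2 fold changes of (FPKM + 0.1) for the 8 tested members (x axis) in the 3 comparisons, with 95% intervals as bars; filled points passed an adjusted p of 0.05. Ace sits near -2 against control with and without the drug and near 0 between dbR and dbdb, whereas Mme shows intervals clear of 0 in each of the 3 panels.

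Angiotensinogen, the substrate of the whole system, is encoded by Agt (ENSMUSG00000031980, GRCm38 chr8:124556534-124569706, minus strand). Its FPKM was 14.0, 11.9 and 12.9 in control, 16.4, 16.0 and 14.4 in dbdb and 14.3, 10.3 and 13.6 in dbR replicates 1 to 3. All dbdb libraries lay above all control and all dbR libraries. The log2 difference was 0.27 (SE 0.12, adjusted p = 0.129) in dbdb vs. control and -0.30 (SE 0.12, adjusted p = 0.234) in dbR vs. dbdb, so neither passed. The first was called under 2 of 21 alternatives. These were without dbR replicate 2, the lowest library (adjusted p = 0.0394), and without mitochondrial transcripts and with equal summed FPKM (0.42, adjusted p = 0.0307). Hepatocyte genes (Alb, Apoa1, Ttr and Serpina1a), markers of the main source of angiotensinogen in the body, summed to an FPKM of 36.2 to 56.1 in control, 29.2 to 46.2 in dbdb and 57.9 to 60.1 in dbR libraries. Serpina1a made up most of this sum. In dbdb vs. control Alb (log2 fold change 0.88, adjusted p = 0.00393) and Ttr (1.52, adjusted p = 0.0389) were called higher, Apoa1 (0.22) and Serpina1a (-0.55) were not called, and the part of these cells in the Agt values was not tested.

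Ren1 (ENSMUSG00000070645, chr1:133350510-133360325, plus strand) encodes renin, whose cut of angiotensinogen limits the rate of the pathway. It had an FPKM of 32.0, 47.6 and 67.4 in control, 41.7, 36.6 and 55.1 in dbdb and 41.2, 56.6 and 52.8 in dbR libraries. The highest and the lowest of the 9 values were both from control mice, and the 3 groups overlapped. The log2 difference was -0.10 in dbdb vs. control, with a 95% interval of -0.64 to 0.45, and 0.18 in dbR vs. dbdb, with an interval of -0.37 to 0.73. Between mice of a group the SD on the log2 scale was 0.381, larger than that of 89.3% of tested genes. Differences within these intervals were not excluded with 3 mice a group. Some mouse strains carry Ren2, a near-identical copy of Ren1, whose reads would be counted as Ren1; whether these mice carry it was not tested.

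Atp6ap2 (ENSMUSG00000031007) encodes the prorenin receptor, which is also an accessory subunit of the vacuolar proton pump. Its FPKM was 46.5, 47.0 and 45.9 in control, 50.9, 50.7 and 51.0 in dbdb and 49.1, 51.8 and 46.4 in dbR libraries. The dbdb libraries lay above all controls within a narrow band, and the dbR libraries spread over both. The log2 difference of 0.13 (SE 0.05) in dbdb vs. control did not pass (adjusted p = 0.10001). It was called under 2 of 21 alternatives. These were quantile normalization (0.21, adjusted p = 0.0241) and leaving out mitochondrial transcripts with equal summed FPKM (0.29, adjusted p = 0.0108).

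Ace (ENSMUSG00000020681) encodes angiotensin-converting enzyme, and of the called members it fell most in dbdb vs. control. Its FPKM was 46.8, 42.3 and 49.0 in control, 11.4, 10.04 and 10.2 in dbdb and 13.7, 9.35 and 10.8 in dbR libraries. The diabetic libraries, treated or not, reached at most 13.7 where the lowest control had 42.3, and the dbR values straddled the dbdb values. In dbdb vs. control the log2 fold change was -2.11 (SE 0.12, adjusted p = 9.57e-06), a level 4.33-fold lower, which placed Ace at rank 59 of 14537 genes by decrease. In dbR vs. control it was -2.03 (adjusted p = 1.01e-05), 4.09-fold lower. Between dbR and dbdb it was 0.08, with a 95% interval of -0.19 to 0.36 (adjusted p = 0.778). The mean level was 22.9% of control in dbdb and 24.5% in dbR cortex. Endothelial markers were lower in dbdb than in control cortex (4 of 5 called lower, Pecam1, Cdh5, Kdr and Emcn) and summed to 97.2 to 116 in dbR against 97.3 to 106 in control libraries, while Ace was at 9.35 to 13.7 in dbR. Their part in the Ace difference was not tested. Without control replicate 3 the log2 fold change of Ace in dbdb vs. control was -2.07.

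Mouse Ace has a somatic start, used in endothelium and epithelium, and an internal start that gives the short testis form. The 250 bases before each RefSeq start are shown because the deposited transcripts separate the 2 starts. The capitals mark matches, on either strand, to TATAA, to the GC box letters GGGCGG and to the nuclear receptor half-site AGGTCA, the element that PPARγ and related receptors read. The first sequence lies at chr11:105967698-105967947 and the second at chr11:105974939-105975188, both on the plus strand (RefSeq, GRCm38.p6).
Ace somatic start: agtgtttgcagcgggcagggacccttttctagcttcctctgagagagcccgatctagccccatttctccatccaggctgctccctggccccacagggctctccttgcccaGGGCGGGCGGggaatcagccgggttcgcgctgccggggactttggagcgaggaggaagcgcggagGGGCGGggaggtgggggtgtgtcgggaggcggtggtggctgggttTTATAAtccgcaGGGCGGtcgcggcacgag
Ace internal start: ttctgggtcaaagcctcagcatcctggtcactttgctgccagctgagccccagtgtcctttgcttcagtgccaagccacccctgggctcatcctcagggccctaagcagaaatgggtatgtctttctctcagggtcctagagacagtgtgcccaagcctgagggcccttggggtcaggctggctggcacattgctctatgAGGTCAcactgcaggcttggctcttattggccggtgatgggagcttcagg

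The somatic window held 4 GC box matches, the first 2 of them overlapping, and TATAA on both strands in 1 overlapping run, 30 bases before the start. It held no AGGTCA. The internal window held 1 AGGTCA, 50 bases before the start, and neither of the other motifs. Of 32851 mouse windows of the same length, 22.8% held TATAA, 32.7% the GC box letters and 14.0% the half-site, so these matches are common and describe letters only. The direct repeat of the half-site with 1 base between its copies (DR1), in 0.0335% of windows, was in neither.

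The Ace sum came from 2 of 3 listed transcripts. Ace-201 (ENSMUST00000001963, chr11:105967945-105989964), which starts at the somatic start, had an FPKM of 36.3, 32.2 and 38.3 in control, 8.23, 7.22 and 8.21 in dbdb and 9.60, 6.78 and 7.33 in dbR libraries. It held 67.6% to 80.1% of the sum in each library and fell with a log2 fold change of -2.16 in dbdb vs. control (adjusted p = 0.000154 over 29362 transcripts, of which 9.57% were called) and of -2.17 in dbR vs. control (adjusted p = 0.000164, with 8.5% of transcripts called). Ace-203, which starts inside the gene, was at 10.4 ± 0.303 (SD, n = 3) in control, 2.66 ± 0.567 in dbdb and 3.39 ± 0.780 in dbR cortex and fell by 1.95 on the log2 scale in dbdb vs. control (adjusted p = 0.000913). Ace-202, the transcript of the internal start, was at most 0.108% of the sum in any library. The share of reads given to each transcript rests on the division by Cufflinks.

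**Figure D3:**
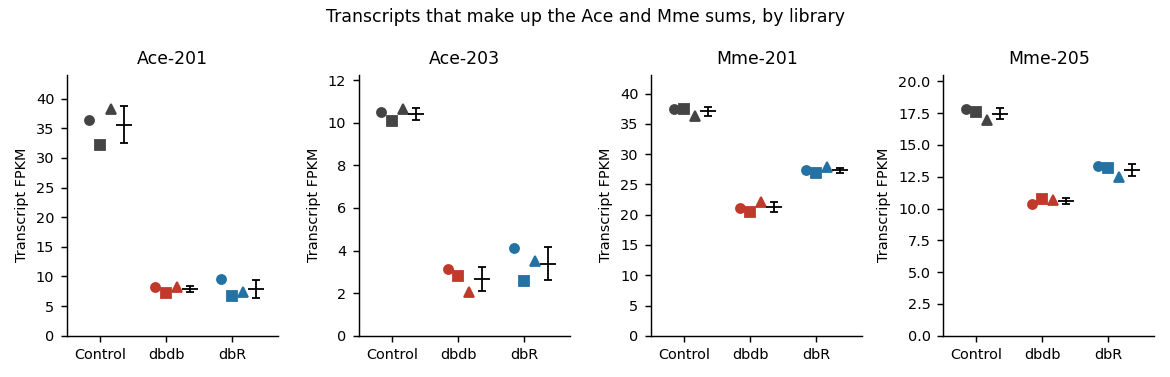
FPKM of the main Ace and Mme transcripts (y axes, from 0) by library, with symbols and bars as in the plot of the 9 genes by library. Both Ace transcripts lie lower in the 6 diabetic libraries than in controls, and both Mme transcripts have their dbR libraries between those of dbdb and control.

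Enpep (ENSMUSG00000028024) encodes aminopeptidase A, which removes the first residue of angiotensin II at the brush border. Its FPKM was 82.5, 79.8 and 76.6 in control, 85.3, 81.4 and 81.7 in dbdb and 75.6, 84.9 and 84.3 in dbR libraries. The groups overlapped, and the log2 difference of 0.06 in dbdb vs. control had a 95% interval of -0.08 to 0.19. It was called higher only under 2 of 21 alternatives, both of which change the scaling of the libraries (adjusted p = 0.0202 without mitochondrial transcripts and 0.0233 after quantile normalization).

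Mme (ENSMUSG00000027820) encodes neprilysin, which cuts angiotensin I to angiotensin-(1-7) and degrades natriuretic peptides. Of the members, it was called in each of the 3 comparisons. Its FPKM was 59.0, 60.0 and 56.8 in control, 34.0, 33.6 and 35.0 in dbdb and 43.8, 43.4 and 43.5 in dbR libraries, with no overlap between any pair of groups. The log2 fold change was -0.78 (SE 0.05, adjusted p = 1.10e-05) in dbdb vs. control, 0.35 (SE 0.05, adjusted p = 0.0234) in dbR vs. dbdb and -0.43 (adjusted p = 0.000276) in dbR vs. control. The mean was thus 58.3% of control in dbdb and 74.3% in dbR cortex.

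The spread of Mme between mice of a group, 0.0300 on the log2 scale, was smaller than that of all but 0.344% of tested genes, where the median gene had 0.135. The dbR vs. dbdb fold change kept its size under every alternative, between 0.29 and 0.37, but the adjusted p was above 0.05 in 9 of 21, with a highest value of 0.109. These include leaving out dbdb replicate 1 (0.0528) or 2 (0.0662) and dbR replicate 2 (0.109) or 3 (0.0647). Podocyte markers, one site of neprilysin, summed to an FPKM of 73.4 to 83.8 in control, 86.0 to 92.3 in dbdb and 79.4 to 96.6 in dbR libraries. Of these 5 markers, Nphs1 and Podxl were called higher in dbdb vs. control, and their part in the Mme values was not tested.

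Mme-201 (ENSMUST00000029400, chr3:63296095-63381623, plus strand) held 61.0% to 63.9% of the Mme sum in each library and Mme-205 (ENSMUST00000194134) 28.6% to 31.9%, so the division between them was alike in all groups. Mme-201 was at 37.4, 37.5 and 36.2 in control, 21.2, 20.5 and 22.1 in dbdb and 27.3, 27.0 and 27.8 in dbR libraries. Fitted among all transcripts, both fell in dbdb vs. control, with log2 fold changes of -0.80 and -0.72. The log2 differences between dbR and dbdb, of 0.36 (adjusted p = 0.0727) and 0.29 (adjusted p = 0.134), did not pass, in a comparison in which 0.017% of all transcripts were called.

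Agtr1a (ENSMUSG00000049115, chr13:30336441-30382867, plus strand) encodes the main AT1 receptor of the mouse. Its FPKM was 19.1, 17.7 and 17.1 in control, 16.1, 16.8 and 18.0 in dbdb and 19.3, 18.5 and 18.4 in dbR libraries. All dbR libraries lay above all dbdb libraries, by 0.15 on the log2 scale (SE 0.07, adjusted p = 0.288), which did not pass, while dbdb and control overlapped. Agtr1b (ENSMUSG00000054988), its paralog, was at 0 in 8 libraries and at 0.0237 in dbR replicate 2, about 1 fragment. At this depth 3 fragments correspond to an FPKM of 0.0472 to 0.0585, counting error only. Reads shared by the 2 paralogs could be given to either.

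Mas1 (ENSMUSG00000068037, chr17:12841079-12868143, minus strand) encodes the Mas receptor for angiotensin-(1-7). Its FPKM was 1.43, 1.11 and 2.46 in control, 0.491, 0.720 and 0.467 in dbdb and 0.192, 0.300 and 0.292 in dbR libraries. The 3 groups did not overlap, with dbR lowest. The log2 fold change was -1.37 in dbdb vs. control (SE 0.28, adjusted p = 0.00630), and that in dbR vs. control was -2.23 (adjusted p = 0.000508). Between dbR and dbdb the log2 difference of -0.86 did not pass (adjusted p = 0.163). Without control replicate 3, the highest library, the change in dbdb vs. control was -1.06 (adjusted p = 0.0185).

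These values rest on few reads, an estimated 10.4 to 86.3 fragments per library spread over 9 listed transcripts. Of the dbdb and dbR libraries, dbdb replicate 2 had the highest FPKM (0.720). It held an estimated 14.45 fragments, against 13.67 in dbR replicate 2. The transcript with the highest mean, Mas1-209, was near 0 in control replicates 1 and 3 and held 93.5% of the sum in dbR replicate 2. Fitted alone, it gave log2 differences from control of 1.17 for dbdb (adjusted p = 0.367) and 0.82 for dbR (adjusted p = 0.562), opposite in sign to the gene sum. Airn, an imprinted lncRNA on the plus strand, has a transcript at chr17:12741311-12860136 that overlaps Mas1. Its summed FPKM was 12.1, 12.6 and 24.1 in control, 6.17, 3.04 and 3.95 in dbdb and 5.59, 5.37 and 8.69 in dbR libraries. Airn and Mas1 were both highest in control replicate 3. The kit marks strand, but whether the counting used it is not given in the sources used here, and the part of Airn in the Mas1 values was not tested.

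**Figure D4:**
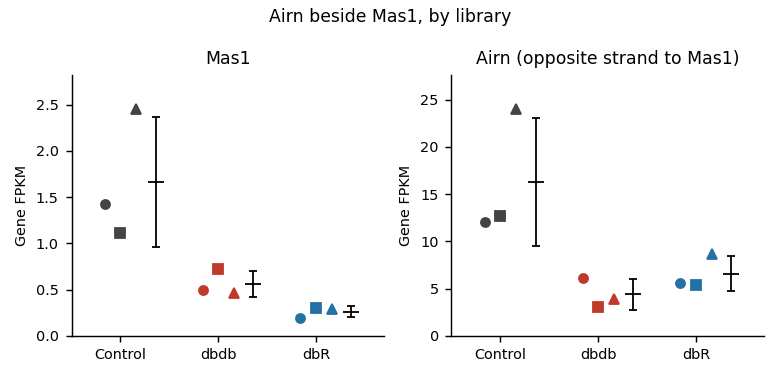
Mas1 FPKM and Airn FPKM (y axes, from 0) by library, with symbols and bars as in the plot of the 9 genes by library. Control replicate 3 is the highest library in both panels, at 2.46 for Mas1 and 24.1 for Airn, and the 6 diabetic libraries lie below all 3 controls in both.

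Around the 9 members, 18 other genes of the pathway were listed and 13 passed the filter. In dbdb vs. control 4 of 13 were called, all higher, against 26.4% of all genes called and 13.1% called higher, and the median log2 fold change of the 13 was 0.08. They were Hsd11b2, which shields the mineralocorticoid receptor from glucocorticoids, at 25.4 ± 3.91 FPKM (SD, n = 3) in control and 51.4 ± 5.60 in dbdb cortex (log2 fold change 1.02, adjusted p = 0.000193), Nr3c2, the mineralocorticoid receptor itself (0.40, adjusted p = 0.00766), Klk1, tissue kallikrein (0.59, adjusted p = 0.00335), and Prep, prolyl endopeptidase (0.23, adjusted p = 0.0424). The call of Prep was lost under 14 of 21 alternatives. The markers of thick ascending limb, distal tubule and collecting duct were Umod, Slc12a1, Slc12a3 and Aqp2, the last a collecting duct gene. They summed to an FPKM of 454 to 569 in control, 585 to 807 in dbdb and 650 to 724 in dbR libraries. Slc12a3 and Aqp2 were called higher in dbdb vs. control. The part of these markers in the differences of the 4 pathway genes was not tested. In dbR vs. dbdb limma called 0 of 13, against 0.743% of all genes, and 3 of 13 had an unadjusted p under 0.05, against 17.5%. In dbR vs. control 5 of 13 were called, against 24.1% of all genes, 12.3% higher and 11.8% lower. Hsd11b2, Nr3c2 and Klk1 were higher, while Rnpep (-0.31, adjusted p = 0.0270) and Nln (-0.26, adjusted p = 0.0275), peptidases that also cut angiotensins, were lower. The calls of Rnpep and Nln were lost under 8 and 6 of 21 alternatives.

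Of 20 genes of renin release and renin cells, 19 were tested. In dbdb vs. control 4 were called higher and 3 lower, against 13.1% and 13.4% of all genes, with a median log2 fold change of 0.22. The higher ones were Adora1, the adenosine receptor that restrains renin release (0.76, adjusted p = 0.0300), Adrb1, the adrenergic receptor that stimulates it (0.56, adjusted p = 0.0403), and the adenylyl cyclases Adcy5 (0.46, adjusted p = 0.0478) and Adcy6 (0.35, adjusted p = 0.00863). The lower ones were Sucnr1, the succinate receptor, at 43.5 ± 3.84 FPKM in control and 21.2 ± 3.10 in dbdb cortex (-1.04, adjusted p = 0.000367), Akr1b7, a marker of renin cells (-0.62, adjusted p = 0.0412), and Nr1h3, the receptor LXRα (-0.33, adjusted p = 0.0186). Of these 7, Adcy6 and Sucnr1 were called under all 21 alternatives. Akr1b7 and Nr1h3 lost their calls under 13 and 4 of 21, and Adcy5, Adrb1 and Adora1 under 14, 11 and 7 of 20.

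Between dbR and dbdb limma called 0 of the 19 renin release genes, against 0.743% of all genes, and 3 of 19 had an unadjusted p under 0.05, against 17.5%. In dbR vs. control 9 of 19 were called, against 24.1% of all genes. Adrb1, Adcy5, Adcy6, Ptger4, the prostaglandin receptor EP4 (0.65, adjusted p = 0.00757), Nos1, neuronal nitric oxide synthase (0.93, adjusted p = 0.0449), Pde3a, a phosphodiesterase (0.68, adjusted p = 0.00668), and Npr1, the receptor of atrial natriuretic peptide (0.36, adjusted p = 0.0127), were higher. Sucnr1 and Nr1h3 were lower. The calls of Adcy5 and Nos1 were lost under 14 and 12 of 20 alternatives and that of Adcy6 under 4 of 21, and Ptger4, Adrb1 and Nr1h3 lost theirs under 1 each. Vascular smooth muscle and mesangial markers, the cells next to renin cells, summed to an FPKM of 25.9 to 45.3 in control, 23.3 to 34.2 in dbdb and 28.3 to 36.8 in dbR libraries. Of these 8 markers, Pdgfrb was called higher in dbR vs. dbdb (0.69, adjusted p = 0.0234) and in dbR vs. control (0.41, adjusted p = 0.0131), Notch3 was called higher in dbR vs. control (0.34, adjusted p = 0.0444), and none was called in dbdb vs. control by limma, with 1 at an unadjusted p under 0.05. Their part in the differences of the renin release genes was not tested.

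The other hydrolases listed for the tubular brush border were 8 genes, all tested, of which 1, Acy1, is largely cytosolic. In dbdb vs. control 5 were called lower and 1 higher, against 13.4% and 13.1% of all genes, with a median log2 fold change of -0.54. Mep1b, the beta subunit of meprin, was at 46.5 ± 13.8 (SD, n = 3) in control and 7.39 ± 0.940 in dbdb cortex (-2.61, adjusted p = 8.10e-05), and Mep1a, its alpha subunit, at 616 ± 59.0 and 280.3 ± 17.4 (-1.13, adjusted p = 2.84e-05). Ggt1, the gamma-glutamyltransferase of glutathione breakdown (-0.91, adjusted p = 4.96e-05), Acy1, an aminoacylase (-0.68, adjusted p = 0.00433), and Treh, trehalase (-0.39, adjusted p = 0.00393), were the other lower genes, and Xpnpep2, aminopeptidase P (0.83, adjusted p = 0.0165), was the higher one. Treh lost its call when mitochondrial transcripts were left out and the summed FPKM was made equal (adjusted p = 0.0560).

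Of the 6 proximal tubule markers, Slc5a2 (0.42) and Slc5a12 (0.55) were called higher in dbdb vs. control. The other 4 were not called, with log2 differences of 0.24 for Slc34a1, -0.04 for Cubn, -0.13 for Aqp1 and -0.35 for Lrp2 (adjusted p = 0.0632), and the groups did not overlap for Slc34a1 and Aqp1. Their part in the differences of the hydrolases was not tested. Between dbR and dbdb limma called 0 of the 8 hydrolases, against 0.743% of all genes, with 3 of 8 at an unadjusted p under 0.05, against 17.5%, and the median log2 difference was 0.19. In dbR vs. control, where 24.1% of all genes were called, Mep1a (-1.05), Mep1b (-2.36) and Ggt1 (-0.73) were called lower, and Xpnpep2 (0.73) and Dpep1, a dipeptidase (0.50, adjusted p = 0.0234), were higher. The calls of Xpnpep2 and Dpep1 were lost under 8 and 6 of 21 alternatives, and that of Xpnpep2 in dbdb vs. control under 4. Acy1 was called in dbR vs. dbdb under 3 alternatives, and without mitochondrial transcripts Acy1 was called (adjusted p = 0.0486) and Mme was not (adjusted p = 0.0760). Whether the difference of Mme is unlike that of these hydrolases was not tested.

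**Figure D5:**
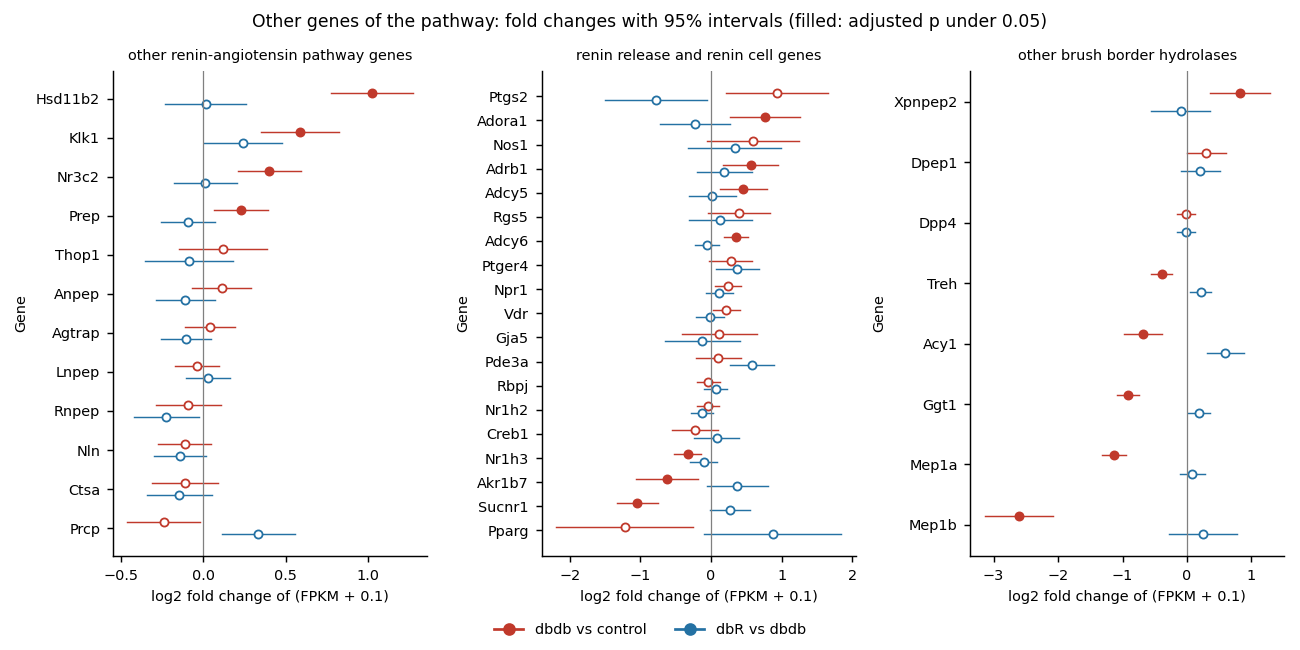
Log2 fold changes of (FPKM + 0.1) (x axes) of genes of the 3 lists in dbdb vs. control (red) and dbR vs. dbdb (blue), with 95% intervals as bars; filled points passed an adjusted p of 0.05. Red filled points lie on both sides of 0 among renin release genes, on the right among other pathway genes and mostly on the left among brush border hydrolases, and no blue point is filled.

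The genes whose levels followed each member most closely over the 9 libraries were taken as a description, by Pearson's r of log2(FPKM + 0.1), with points that share library and group. For Ace these were Slc22a7, an organic anion transporter (r = 0.996), and Cyp51, a sterol synthesis enzyme (r = 0.996), which had an FPKM of 22.4 to 39.5 and 73.1 to 89.1 in control and of at most 0.948 and 17.6 in diabetic libraries. For Mme they were Nap1l1 (r = 0.984) and BC021785 (r = 0.976), both also with dbR between dbdb and control. For Mas1 they were Zfp706 (r = 0.994) and Ywhaz (r = 0.984), for Agtr1a Mylk (r = 0.933) and Gngt2 (r = 0.923), and for Agt L3mbtl2 (r = 0.957) and Slc25a44 (r = 0.933). For Ren1 they were Fnbp1l (r = 0.916) and Rbbp7 (r = 0.906), for Atp6ap2 Tom1 (r = 0.929) and Bcap29 (r = 0.928), and for Enpep Osgep (r = 0.943) and Slc50a1 (r = 0.886).

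Within the members, Ace and Mme had a correlation of 0.894 over the 9 libraries, which the differences between groups carry: after subtracting the group means it was -0.157.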

How the data were processed

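Total RNA of renal cortex was depleted of ribosomal RNA and made into strand-specific libraries. According to the study's methods and the submitters' processing notes, the authors aligned the reads to GRCm38.p2 with TopHat 2.0.9, assembled transcripts with Scripture and Cufflinks 2.1.1 and deposited per-transcript FPKM for every library. FPKM is divided by transcript length and library size, and the deposited values hold no counts. Authors' fold changes and p-values were not used.

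FPKM was summed per gene. The 14537 genes whose FPKM averaged 0.1 or more were fitted on the log2(FPKM + 0.1) scale by limma 3.58.1 under R 4.3.3, with the 3 groups in 1 model, a variance trend and two-sided tests. Fold changes on this scale understate low genes. Simulated data with known changes were used to test the model. Depth was estimated from the steps between low FPKM values of genes with 1 transcript, 85.6% to 91.4% of which were whole fragments within 0.15. Groups came from the sample titles. Gene coordinates are from GENCODE vM21 (GRCm38).

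The members and gene lists were chosen with earlier results of these data known. The named genes are the members, the called genes of 3 pathway lists and the 2 genes nearest to each member. One pathway gene counted among those tested is not reported here. Marker lists covered proximal tubule, smooth muscle and mesangium, endothelium, podocyte, distal tubule with collecting duct, leukocyte, adipocyte, adrenal cortex and hepatocyte. Adipocyte markers summed to an FPKM of 0.228 to 2.15 in control, 0.0244 to 0.102 in dbdb and 0.0315 to 0.618 in dbR libraries. Adrenal markers summed to 0.728 to 0.998, 1.15 to 1.68 and 0.813 to 1.58 in the same order. The 21 alternatives changed the pseudocount, filter, scaling, model or libraries, and 1 of them, fitting annotated lncRNA genes too, was added after the data were seen.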

Additional observations from a re-analysis of the deposited data

How the results depend on the processing

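With 3 mice a group, the p-values set a difference against the spread between these mice only. The fit takes that spread from all 3 groups and from the variance trend over the tested genes. Of 43 calls of members and genes of the 3 lists, 22 held in every alternative that gave a value. Ace and Mme kept their calls against control in all 21, and Mas1 in 19 of the 20 that give it a value, since a minimum mean FPKM of 1 removes it. On its highest transcript its log2 difference from control was 1.17 for dbdb and 0.82 for dbR. For the changes below, the cause was not tested.

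The count of all genes in dbR vs. dbdb, 108 in the fit as reported, was 203 with scaling to the 75th percentile, 234 after quantile normalization, 166 at a mean FPKM of at least 1, 17 without a filter, 18 without the variance trend, 22 in the 6 libraries alone, 67 with lncRNA genes and 4 on the highest transcript. With each library left out in turn it was 2 to 141, with 2 without dbR replicate 2, 10 without dbR replicate 3, 31 and 36 without dbdb replicates 2 and 1 and 70 without dbR replicate 1. On the highest transcript the counts were 2115 in dbdb vs. control (3840 as reported) and 1896 in dbR vs. control (3497 as reported).

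The members called in dbR vs. dbdb, 1 as reported, became 0 on the highest transcript, without mitochondrial transcripts, without the variance trend and in the 6 libraries alone, and were 0 to 1 with a library left out. In dbdb vs. control, 3 became 6 without mitochondrial transcripts (Agt, Atp6ap2 and Enpep called higher) and 5 after quantile normalization (Atp6ap2 and Enpep). The setting without mitochondrial transcripts also scaled the libraries to equal summed FPKM. Under it the median log2 fold change of all genes in dbdb vs. control was 0.149, against -0.0030 as reported. The share of higher calls then was 78.3% against 49.5% as reported, 70.5% against 51.1% in dbR vs. control (62.3% with the 75th percentile) and 48.6% against 75.9% in dbR vs. dbdb.

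Of the other pathway genes, 5 were called in dbR vs. control as reported, 3 on the highest transcript and 3 to 7 with a library left out (3 without control replicate 1 or dbR replicate 1 or 2), and in dbR vs. dbdb 1 without a filter. Of the renin release genes, 7 in dbdb vs. control became 3 on the highest transcript, 4 without a filter or in the 6 libraries alone and 3 to 6 with a library left out (3 without control replicate 1 or 2 or dbdb replicate 2, 4 without dbdb replicate 1 or dbR replicate 1), and 9 in dbR vs. control became 3 on the highest transcript and 5 at a mean FPKM of at least 1. Of the hydrolases, 5 in dbR vs. control became 3 on the highest transcript, 3 without a filter and 3 to 6 with a library left out (3 without control replicate 2 or 3 or dbR replicate 2), and 0 in dbR vs. dbdb became 1 with the 75th percentile or without mitochondrial transcripts (Acy1) and 0 to 1 with a library left out (1 without control replicate 3, Acy1).

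Deviations of same-numbered libraries correlated at -0.175 to 0.0615 over 9 pairs, and those of other numbers at -0.108 to 0.168 over 18. With 3 libraries a group these ranges cannot settle whether the numbers pair the mice. With the replicate number as a block, 23 genes and 0 members were called in dbR vs. dbdb, with an adjusted p of 0.0602 for Mme.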
